A study of Mus musculus with 6 samples.

Results

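The receptors for extracellular nucleotides and adenosine and the cell-surface enzymes that convert ATP to adenosine were examined in resting bone-marrow-derived macrophages (BMDMs) with and without CITED2. The 10 genes were chosen by name: the metabotropic nucleotide receptors *P2ry6*, *P2ry12*, *P2ry13* and *P2ry14*, the ATP-gated channels *P2rx4* and *P2rx7*, the adenosine receptors *Adora2a* and *Adora2b*, and the ectoenzymes *Entpd1* and *Nt5e*. All 10 were among the 22248 genes listed, and 7 of them were among the 11687 genes with a mean FPKM (fragments per kilobase of transcript, scaled to library size) of at least 1 over the 6 libraries, which were the genes tested. *Adora2a*, *Adora2b* and *Nt5e* were below that level. RNAseq covered 3 libraries of *Lyz2*cre BMDMs (control) and 3 of *Cited2*fl/fl:*Lyz2*cre BMDMs (CITED2-deficient), which the series describes as 3 mice for each genotype. Both genotypes were on the C57BL/6 background with 1 *Lyz2*cre allele, the labels give a postnatal age of 10 weeks while the methods of the study give a younger age, and the cells were grown from bone marrow with macrophage colony-stimulating factor and received no stimulus. The CITED2-deficient mice carried in addition 2 floxed *Cited2* alleles, which Cre made from the *Lyz2* locus recombines in cells of the myeloid lineage, so that cells which do not make Cre keep the gene. The comparison addresses how the loss of the transcriptional coregulator CITED2 alters gene expression in macrophages before any inflammatory stimulus.

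Cells release ATP, ADP, UTP, UDP and UDP-sugars when they are stressed, damaged or dying, and neighboring cells read them through P2 receptors. In macrophages the ATP-gated channel P2RX7 is known for inflammasome activation at high ATP concentrations, the UDP receptor P2RY6 for phagocytosis, and the ADP receptors P2RY12 and P2RY13 for the motility of microglia, the macrophages of the brain. The ectoenzyme ENTPD1 (CD39) removes phosphates from ATP and ADP to give AMP, NT5E (CD73) turns AMP into adenosine, and adenosine then acts on receptors such as ADORA2A and ADORA2B, which raise cyclic AMP and restrain inflammatory responses.

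*Cited2* itself checks the genotype of the libraries. Its FPKM was 71.7, 79.3 and 75.5 in control and 9.27, 7.22 and 7.53 in CITED2-deficient BMDMs. The recovered depth was 17289286 to 18952077 fragments in control and 22583995 to 26100410 fragments in CITED2-deficient libraries, 1.34 times as deep on average. The 7 macrophage markers had a summed FPKM of 5319 to 5375 in control and 4951 to 5050 in CITED2-deficient BMDMs, most of it *Adgre1*, *Cd68* and *Csf1r*. Of the 7 markers 5 were lower, among them *Lyz2* (log2 fold change -1.59) and *Itgam* (-0.81), *Fcgr1* was higher (1.48) and *Cd68* did not pass the threshold in limma. The summed FPKM of 8 fibroblast or stromal markers was 42.4 to 50.6 in control and 170 to 540 in CITED2-deficient BMDMs. All 6 of the tested markers in that list were higher, and *Col1a1* reached 305 in CITED2-deficient replicate 1 against 62.0 and 62.6 in the other CITED2-deficient libraries. The 4 megakaryocyte or platelet markers summed to 314 to 343 in control and 78.4 to 89.7 in CITED2-deficient BMDMs, almost all of it *Pf4*. Of the 3 tested markers in that list *Pf4* was lower (log2 fold change -2.07), and *Ppbp* (0.69) and *Itga2b* (0.38) were higher. The call of *Itga2b* was lost without the FPKM filter (adjusted p = 0.0925 from limma). The 3 endothelial markers summed to 5.73 to 6.01 and 26.9 to 32.3, most of it *Kdr* (means 4.26 and 27.5). *Cdh5* rose from a mean of 0.72 to 1.52, and *Pecam1* (0.93 and 1.33) did not pass the threshold (adjusted p = 0.127 from limma). Neutrophil or granulocyte precursor markers summed to 726 to 795 in control and 658 to 777 in CITED2-deficient BMDMs, with 5 of 7 lower, among them *Mpo* (-2.54) and *Elane* (-2.08), and *Ltf* higher (0.90). The lists for mast cells or basophils, dendritic cells and lymphocytes were near 0, with sums of at most 3.18 in any library. The part of other cell types in the results was not tested, and in bulk RNA fewer cells of a type and less RNA per cell cannot be told apart.

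CITED2-deficient BMDMs had less RNA for *P2ry6*, *P2ry12*, *P2rx7* and *Entpd1* and more for the UDP-sugar receptor *P2ry14*, while the lower call of *P2rx4* depended on the scaling. Of the 7 tested genes, *P2ry6*, *P2ry12*, *P2rx4*, *P2rx7* and *Entpd1* were lower, *P2ry14* was higher and *P2ry13* did not pass the threshold, an adjusted p of 0.05 in limma on log2(FPKM + 1). Among all tested genes 51.3% passed this threshold, 34.6% lower and 16.7% higher in CITED2-deficient BMDMs. The median log2 fold change of the 7 genes was -0.44, beside -0.10 over all tested genes. In 6 of the 7 genes the FPKM values of the groups did not overlap, which was also so for 59.9% of all tested genes. When at least a 2-fold difference on the log2(FPKM + 1) scale was required as well, *P2rx7* and *P2ry14* were left, 1 lower and 1 higher, beside 5.26% of all tested genes (1.54% lower and 3.72% higher). *P2ry12* did not reach 2-fold on that scale because of the added 1, although its mean FPKM differed 2.11-fold. Median-ratio scaling, which sets the middle gene of each library level and moved the median of all genes to -0.0069, left 5 of the 7 genes past the threshold. The background was then 44.4%, with 23.1% higher and 21.3% lower, and 52.0% of the calls were higher, against 32.5% with the FPKM as deposited.

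**Figure D1:**
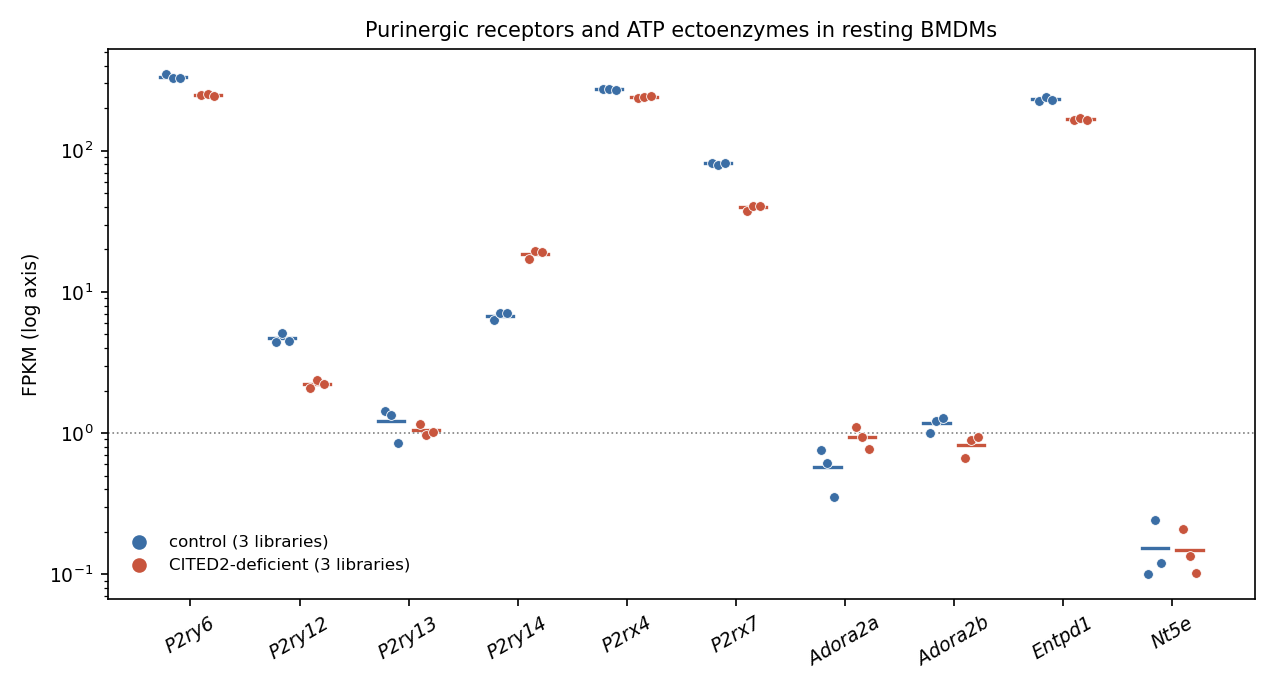
FPKM of the 10 genes on a log axis in each of 3 control (blue) and 3 CITED2-deficient (red) libraries. Short bars are group means, and the dotted line marks an FPKM of 1. *P2ry6*, *P2rx4* and *Entpd1* lie above 100 in every library, *P2ry14* rises from 6.80 to 18.5, and *Nt5e* stays below 0.25.

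The genes spanned more than 3 orders of magnitude in level. FPKM is scaled to length, but the lengths that recovered whole fragments were means over all annotated transcripts, not over those expressed. Close levels of different genes are therefore compared with less certainty. *P2ry6* had a higher FPKM than *P2rx4* in control but fewer recovered fragments (20065 and 21962), with lengths of 1084 and 1459 bases. In control BMDMs the order of mean FPKM was *P2ry6*, *P2rx4*, *Entpd1*, *P2rx7*, *P2ry14*, *P2ry12*, *P2ry13*, *Adora2b*, *Adora2a* and *Nt5e*. *P2ry6* exceeded 98.6% of all listed genes, *P2rx4* 98.3%, *Entpd1* 97.9% and *P2rx7* 93.5%. *P2ry14* and *P2ry12* exceeded 63.7% and 60.1%, and *Nt5e* exceeded 30.4%. Only *P2ry13* and *Adora2b* were neighbors in this order with overlapping values, so their order is not defined by the data. In CITED2-deficient BMDMs *P2ry6* and *P2rx4* came to overlap at the top, and *Adora2a* overlapped with *P2ry13* and with *Adora2b* near an FPKM of 1.

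*P2ry6* (ENSMUSG00000048779, minus strand of chromosome 7, 100937630 to 100974649 in mm10, the build of every coordinate given here) encodes a receptor for UDP that couples to Gq. Its FPKM was 348, 329 and 329 in control and 247, 251 and 242 in CITED2-deficient BMDMs, each set in the order of the replicate numbers. Every CITED2-deficient library was below every control library, and the means were 335 ± 11.1 and 247 ± 4.34 (SD, n = 3), so that the mean fell by 26.4%. Limma gave a log2 fold change of -0.44 ± 0.03 (SE; adjusted p = 4.62e-06) and -0.34 after median-ratio scaling. *P2ry6* was the most abundant of the 7 *P2ry* genes examined and made up 92.7%, 91.8% and 92.0% of their summed FPKM in control libraries. In CITED2-deficient libraries its share was 85.2%, 84.2% and 84.2%. Higher shares without overlap were those of *P2ry14*, from 1.67%, 1.97% and 1.98% to 5.86%, 6.55% and 6.63%, and the ATP and UTP receptor *P2ry2*, from 3.24%, 3.51% and 3.49% to 7.07%, 7.54% and 7.25%.

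*P2ry14*, *P2ry13* and *P2ry12* lie side by side on the minus strand of chromosome 3 and moved differently. *P2ry14* (ENSMUSG00000036381, 59113855 to 59153618) encodes a Gi-coupled receptor for UDP-glucose and other UDP-sugars. Its FPKM was 6.27, 7.05 and 7.07 in control and 17.0, 19.5 and 19.1 in CITED2-deficient BMDMs, with 245 to 277 and 891 to 1030 recovered fragments per library. The lowest CITED2-deficient value was over 2 times the highest control value. The means were 6.80 ± 0.456 and 18.5 ± 1.38 (SD, n = 3), a 2.73-fold difference, and limma gave a log2 fold change of 1.32 ± 0.07 (SE; adjusted p = 9.26e-07). It was 1.42 after median-ratio scaling, and *P2ry14* had the 255th largest rise among the tested genes. CITED2-deficient replicate 1, which had the most stromal marker RNA, had the lowest *P2ry14* value of its group. This is 1 library, and the part of stromal RNA in the *P2ry14* value was not tested.

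*P2ry12* (ENSMUSG00000036353, 59216272 to 59262871) encodes the Gi-coupled ADP receptor that clopidogrel blocks on platelets. Its FPKM was 4.41, 5.13 and 4.51 in control and 2.08, 2.36 and 2.23 in CITED2-deficient BMDMs. All CITED2-deficient values were lower, with means of 4.69 ± 0.388 and 2.22 ± 0.142 (SD, n = 3), so that the mean fell by 52.6%. Limma gave a log2 fold change of -0.82 ± 0.10 (SE; adjusted p = 0.000126) on the log2(FPKM + 1) scale, which understates the change of a gene at this level, and -1.07 with limma-voom on recovered fragments. *P2ry12* is also a platelet gene, and the platelet chemokine *Pf4* fell in the same libraries from 310, 337 and 313 to 79.8, 75.9 and 70.6. The platelet markers *Ppbp* and *Itga2b* had log2 fold changes of 0.69 and 0.38, and *Gp9* was listed at 0 in 1 library. The part of platelet RNA in the *P2ry12* value was not tested. *P2ry13* (ENSMUSG00000036362, 59207892 to 59210882), another Gi-coupled ADP receptor, had an FPKM of 1.44, 1.35 and 0.856 in control and 1.15, 0.963 and 1.02 in CITED2-deficient BMDMs. The groups overlapped, and the log2 fold change on the log2(FPKM + 1) scale was -0.11 (95% interval -0.45 to 0.24, adjusted p = 0.579 from limma). That scale understates changes at this level too, and limma-voom without the FPKM filter gave -0.18 (95% interval -0.65 to 0.29). A change within the wider interval was not excluded with 41 to 74 fragments per library.

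In the annotation 54273 bases lie between *P2ry14* and *P2ry13* and 5389 bases between *P2ry13* and *P2ry12*, and all 3 lie within the span of *Med12l* on the plus strand. *Med12l* had a mean FPKM of 0.0395 in control and 0.148 in CITED2-deficient BMDMs, and the other genes of the interval were as low (*Gpr171* 0.167 and 0.151, *Igsf10* 0.0517 and 0.178). The *P2ry13* to *P2ry12* ratio within a library differed by 0.89 on the log2 scale, CITED2-deficient minus control, and the *P2ry13* to *P2ry14* ratio by -1.63, with no overlap between groups in either ratio. An exact two-sided permutation test gave p = 0.1 for each (0.12 adjusted over 6 ratios), which is the smallest value that 3 against 3 libraries allow.

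**Figure D2:**
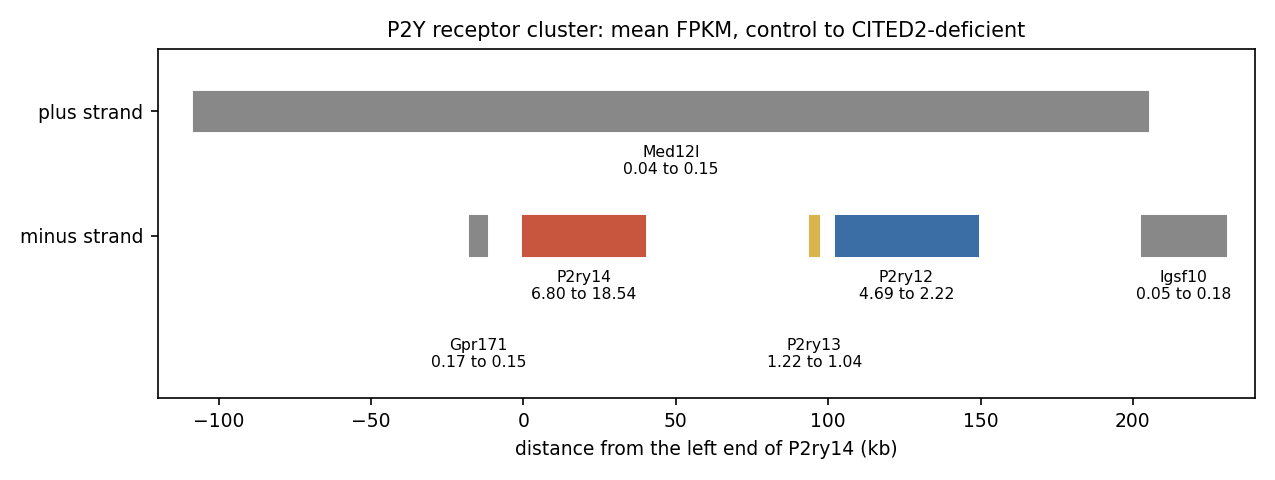
Gene spans around *P2ry14*, *P2ry13* and *P2ry12*, to scale, in kilobases from the left end of *P2ry14*, with the mean FPKM in control and then CITED2-deficient BMDMs under each gene. Red marks the higher gene *P2ry14*, blue the lower gene *P2ry12*, yellow *P2ry13*, which did not pass the threshold, and grey genes with a mean FPKM below 1 in both groups.

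The 250 bases before the annotated starts of these genes are shown because neighbors in 1 cluster changed in opposite directions. RefSeq promoter windows (GRCm38.p6) were found for 8 of the 10 genes, not for *P2ry6* or *Adora2a*, with 13 windows in all. They were searched on both strands for GAAA followed after 2 free bases by GAAA (the interferon-stimulated response element), TTCNNNGAA (the site of STAT dimers), GAGGAA (the core of the site of the myeloid factor PU.1) and GGG followed after 5 free bases by CC (NFkB). No window of these 8 genes held the first or the second pattern, which occurred in 2.97% and 7.01% of 32817 windows of the same length. GAGGAA occurred in all 4 *P2ry14* windows, a pair of which overlap and share the match, in the window of *P2ry13* and in 1 of the *Entpd1* windows, beside 23.3% of all windows. The NFkB pattern was found in 6 of the 13 windows, 1 of the *P2ry14* windows not printed here included, and in 45.8% of all windows. A match is a description of letters and not a measured binding site. In the sequences below, from 5′ to 3′ on the minus strand, capitals mark GAGGAA beginning 21 bases before the *P2ry14* start and the NFkB pattern GGAAGTTCCC beginning 51 bases before the *P2ry12* start.
*P2ry14*, chr3:59153493-59153742: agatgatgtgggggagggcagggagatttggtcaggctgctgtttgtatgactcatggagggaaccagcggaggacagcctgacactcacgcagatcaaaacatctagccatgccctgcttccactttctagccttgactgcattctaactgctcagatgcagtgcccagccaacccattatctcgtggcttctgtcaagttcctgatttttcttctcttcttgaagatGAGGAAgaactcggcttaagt
*P2ry12*, chr3:59262986-59263235: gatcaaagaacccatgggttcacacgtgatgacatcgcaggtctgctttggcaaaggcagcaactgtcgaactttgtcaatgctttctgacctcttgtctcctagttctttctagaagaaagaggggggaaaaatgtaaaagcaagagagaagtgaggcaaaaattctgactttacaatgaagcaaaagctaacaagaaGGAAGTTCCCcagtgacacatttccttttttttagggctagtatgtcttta

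The ATP-gated channels fell unequally. *P2rx7* (ENSMUSG00000029468, plus strand of chromosome 5, 122643911 to 122691432) had an FPKM of 82.0, 79.8 and 81.9 in control and 37.7, 40.6 and 40.8 in CITED2-deficient BMDMs. The groups were far apart, with means of 81.2 ± 1.26 and 39.7 ± 1.73 (SD, n = 3), so that the mean fell by 51.1%. Limma gave a log2 fold change of -1.02 ± 0.04 (SE; adjusted p = 8.67e-08) and -0.91 after median-ratio scaling, and the fall ranked 178th among the tested genes. *P2rx4* (ENSMUSG00000029470, 122707544 to 122729738), a channel that opens at lower ATP concentrations and resides largely in lysosomes, had an FPKM of 274, 274 and 271 in control and 235, 240 and 246 in CITED2-deficient BMDMs. Its groups did not overlap either, but the mean fell by 11.9% only, with means of 273 ± 1.94 and 240 ± 5.44 (SD, n = 3) and a limma log2 fold change of -0.18 ± 0.03 (SE; adjusted p = 0.000553). This call depended on the scaling: after median-ratio scaling the log2 fold change of *P2rx4* was -0.079 (adjusted p = 0.0609 from limma), so that its fall was close to the shift of the median gene.

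A ratio of 2 genes within a library does not depend on the scaling between libraries. There was 3.35, 3.43 and 3.31 times as much *P2rx4* as *P2rx7* RNA per length in control and 6.23, 5.92 and 6.03 times as much in CITED2-deficient BMDMs. The ratio was 1.80-fold higher in CITED2-deficient BMDMs without overlap, and the exact two-sided permutation p was 0.1 (0.12 adjusted over 6 ratios), the smallest possible. The genes lie 16111 bases apart on the same strand. The upstream windows below are shown because these neighbors fell by different amounts. They held matches to the NFkB pattern alone, which stand in capitals (plus strand, 5′ to 3′). Another *P2rx7* window, chr5:122650133-122650382, held no match to any pattern searched and is not printed. The capitals in the *P2rx4* window hold a pair of overlapping matches.
*P2rx7*, chr5:122643677-122643926: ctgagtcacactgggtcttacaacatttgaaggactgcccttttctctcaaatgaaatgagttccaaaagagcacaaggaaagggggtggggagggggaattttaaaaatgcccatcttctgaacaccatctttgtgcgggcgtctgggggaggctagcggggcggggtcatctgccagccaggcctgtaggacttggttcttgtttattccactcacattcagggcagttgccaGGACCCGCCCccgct
*P2rx4*, chr5:122707294-122707543: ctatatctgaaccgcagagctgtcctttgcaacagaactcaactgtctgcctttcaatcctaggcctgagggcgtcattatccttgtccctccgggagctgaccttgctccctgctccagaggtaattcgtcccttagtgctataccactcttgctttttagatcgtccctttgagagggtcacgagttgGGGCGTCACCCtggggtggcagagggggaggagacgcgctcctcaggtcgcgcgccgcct

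*Entpd1* (ENSMUSG00000048120, plus strand of chromosome 19, 40612366 to 40741602) was the only abundant enzyme of the pair that makes adenosine from extracellular ATP. Its FPKM was 226, 239 and 228 in control and 166, 171 and 165 in CITED2-deficient BMDMs. All CITED2-deficient values were lower, with means of 231 ± 7.43 and 167 ± 2.81 (SD, n = 3), so that the mean fell by 27.5%. Limma gave a log2 fold change of -0.46 ± 0.03 (SE; adjusted p = 3.74e-06) and -0.36 after median-ratio scaling. *Nt5e* (ENSMUSG00000032420, plus strand of chromosome 9, 88327197 to 88372092) had an FPKM of 0.101, 0.242 and 0.120 in control and 0.209, 0.135 and 0.102 in CITED2-deficient BMDMs, from 5 to 14 fragments per library. The groups overlapped, and limma-voom on recovered fragments without the FPKM filter gave a log2 fold change of -0.018 (95% interval -1.18 to 1.14), so a change of up to about 2-fold in either direction was not excluded at this depth. The *Entpd1* to *Nt5e* ratio also overlapped between groups (log2 difference -0.45, p = 0.4 from an exact two-sided permutation test).

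The adenosine receptors were near the limit of measurement. *Adora2a* (ENSMUSG00000020178, plus strand of chromosome 10, 75316877 to 75334784) had an FPKM of 0.762, 0.611 and 0.354 in control and 1.10, 0.935 and 0.772 in CITED2-deficient BMDMs, from 7 to 15 and 21 to 29 fragments. *Adora2b* (ENSMUSG00000018500, plus strand of chromosome 11, 62248984 to 62266453) had an FPKM of 1.00, 1.22 and 1.29 in control and 0.661, 0.888 and 0.934 in CITED2-deficient BMDMs, from 31 to 45 fragments in every library. Neither gene's groups overlapped, which was also so for 59.9% of all tested genes, a set that leaves these 2 genes out. The means lay higher for *Adora2a* and lower for *Adora2b* in CITED2-deficient BMDMs. Neither passed the threshold in limma-voom without the FPKM filter, where 39.0% of genes did (25.0% lower), or in limma without the filter, where 26.2% did (16.3% lower and 9.9% higher). Limma-voom gave a log2 fold change of 0.72 for *Adora2a* (95% interval -0.16 to 1.59, adjusted p = 0.191) and -0.51 for *Adora2b* (95% interval -1.06 to 0.042, adjusted p = 0.139). Within a library the *Adora2a* to *Adora2b* ratio was 0.759, 0.499 and 0.275 in control and 1.66, 1.05 and 0.826 in CITED2-deficient BMDMs. The ratio was 2.40-fold higher without overlap, with p = 0.1 in an exact two-sided permutation test (0.12 adjusted over 6 ratios), and it rested on few fragments. Its separation follows from the values of *Adora2a* and *Adora2b*, which lay apart in opposite directions, and is not a separate result.

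**Figure D3:**
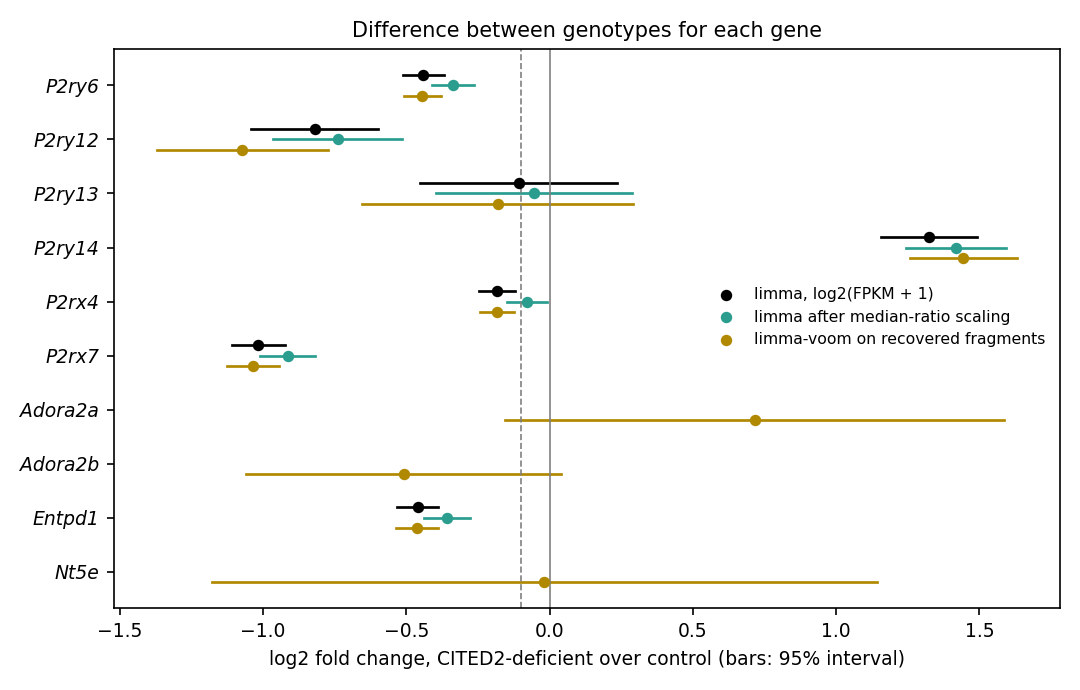
Log2 fold change of each gene, CITED2-deficient over control, with its 95% interval from limma on log2(FPKM + 1) (black), limma after median-ratio scaling (green) and limma-voom on recovered fragments (gold, the only estimate drawn for *Adora2a*, *Adora2b* and *Nt5e*). The dashed line is the median of all tested genes, -0.10. *P2ry14* lies far to the right of 0 in every fit, and *P2rx7* and *P2ry12* lie farthest to the left.

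**Figure D4:**
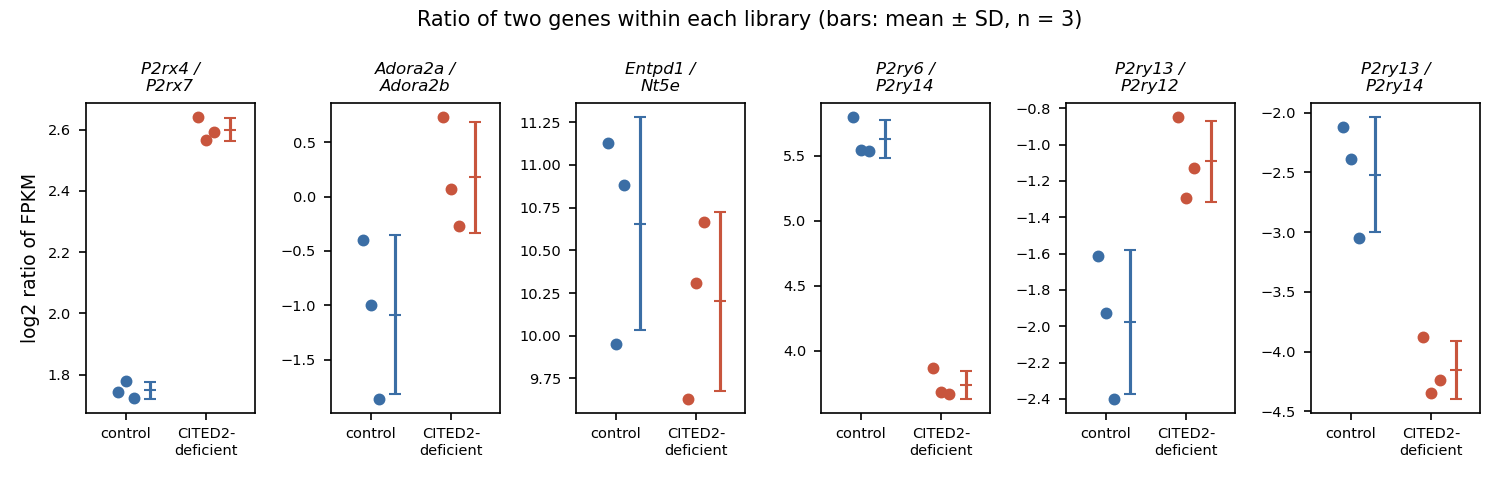
Log2 ratio of the FPKM of 2 genes within each library for 6 pairs, each panel with an axis range of its own, with mean ± SD of 3 libraries beside the points. The groups separate in 5 panels and overlap for *Entpd1* to *Nt5e*.

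The *P2ry6* to *P2ry14* ratio, which sets the UDP receptor against the UDP-sugar receptor, was 55.5, 46.7 and 46.5 in control and 14.5, 12.9 and 12.7 in CITED2-deficient BMDMs. It was 3.70-fold lower without overlap (p = 0.1 from an exact two-sided permutation test, 0.12 adjusted over 6 ratios). As *P2ry6* was lower and *P2ry14* higher without overlap, this separation follows from the single genes and is not a separate result. The tested genes whose centered profiles over the 6 libraries were most like that of *P2ry14*, the gene with the largest change, were *Dtx3l* (Euclidean distance 0.0651 on the log2 scale), *Pnp* (0.0776) and *Nt5c3* (0.110). *Dtx3l* encodes a ubiquitin ligase, and its FPKM was 19.9, 21.2 and 22.1 in control and 51.8, 57.1 and 56.3 in CITED2-deficient BMDMs. CITED2-deficient replicate 1 had the lowest value of its group in all of these genes, as in *P2ry14*. They were chosen for likeness to the *P2ry14* profile, so this shared order comes with the choice and is not a separate result.

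Other genes of purinergic signaling moved in both directions. In 7 lists with 68 genes, 63 were listed and 46 were tested. Of these 14 were higher, 16 were lower and 16 did not pass the threshold, beside the background of 51.3%, and the median log2 fold change was -0.034. After median-ratio scaling 18 were higher and 12 lower. Of the P2 receptors outside the main set, *P2ry2*, a Gq-coupled receptor for ATP and UTP, had an FPKM of 12.2, 12.6 and 12.5 in control and 20.5, 22.5 and 20.9 in CITED2-deficient BMDMs. This was a rise without overlap (log2 fold change 0.73, adjusted p = 5.5e-06 from limma). The ADP receptor *P2ry1* fell from 2.99, 3.13 and 3.57 to 2.12, 1.90 and 2.07 (log2 fold change -0.48, adjusted p = 0.00454 from limma). That scale understates changes at this level, and limma-voom without the FPKM filter gave -0.66. Of the 3 receptors for ADP, *P2ry1* and *P2ry12* were thus lower and *P2ry13* did not pass. No other adenosine receptor was tested, and *Adora3* had a mean FPKM of 0.509 and 0.484.

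Among the other ectoenzymes 7 were tested, with 3 higher, 2 lower and 2 not past the threshold. *Enpp4*, which hydrolyses diadenosine polyphosphates, had an FPKM of 1.21, 1.00 and 0.961 in control and 4.47, 5.08 and 5.37 in CITED2-deficient BMDMs (log2 fold change 1.54, adjusted p = 4.85e-06 from limma). The log2(FPKM + 1) scale understates the changes of low genes such as this, and its value ranged up to 2.23 under the alternatives. The NAD-consuming enzyme *Cd38* fell from 6.09, 6.19 and 5.24 to 2.90, 3.31 and 2.83 (log2 fold change -0.77, adjusted p = 0.000174 from limma, and down to -0.96 under the alternatives). *Enpp1*, which splits ATP into AMP and pyrophosphate, fell from 9.21, 10.1 and 9.40 to 7.26, 5.64 and 6.47. These genes did not overlap between groups. *Enpp2*, the secreted enzyme autotaxin, rose from 1.44, 1.85 and 1.89 to 4.01, 3.22 and 2.74, and its log2 fold change was 0.66 (adjusted p = 0.00354 from limma) and 0.55 without CITED2-deficient replicate 1 (adjusted p = 0.0127). That library had the most stromal marker RNA, and the part of stromal RNA in the *Enpp2* value was not tested. The phosphatase *Alpl* was 1.14, 0.876 and 1.33 in control and 31.6, 3.91 and 2.76 in CITED2-deficient BMDMs. Its log2 fold change was 2.00 (adjusted p = 0.0322 from limma) and 1.03 without CITED2-deficient replicate 1 (adjusted p = 0.00138), and the call was lost without the FPKM filter (adjusted p = 0.112), with limma-voom, without the trend and when any 1 control library was left out. The cell-surface peptidase *Dpp4* was below the filter, at 0.0389, 0.212 and 0.155 against 1.47, 1.72 and 1.94. Of the 3 tested intracellular nucleoside diphosphatases *Entpd5* alone passed (log2 fold change -0.20, adjusted p = 0.0391 from limma), and its value became -0.10 after median-ratio scaling (adjusted p = 0.259).

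Among the genes of nucleotide release and nucleoside transport 3 of 7 were higher, 3 lower and 1 did not pass. *Slc28a2*, a sodium-dependent nucleoside transporter, rose from 15.2, 14.9 and 15.9 to 57.2, 65.5 and 63.1 (log2 fold change 1.94, adjusted p = 1.11e-08 from limma). The lysosomal transporter *Slc29a3* rose from 47.5, 45.9 and 47.9 to 74.6, 77.5 and 74.3. The equilibrative transporter *Slc29a1* of the cell surface fell from 42.9, 44.3 and 40.9 to 32.4, 28.9 and 29.6. Nucleoside transporters thus moved both ways, and none of these 3 overlapped between groups. *Panx1*, the pannexin channel through which cells release ATP, fell from 6.88, 7.25 and 6.89 to 3.84, 3.18 and 3.69 (log2 fold change -0.81, adjusted p = 5.97e-05 from limma). *Slc17a9*, which loads ATP into vesicles, fell from 10.7, 10.7 and 9.99 to 8.86, 6.13 and 5.27. The connexin *Gja1* rose from 3.17, 2.58 and 2.93 to 10.6, 6.78 and 7.35 and was highest in CITED2-deficient replicate 1. Without that library, the one with the most stromal marker RNA, its log2 fold change was 1.05 instead of 1.23 (adjusted p = 9.75e-05 from limma). The part of stromal RNA in the *Gja1* value was not tested.

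Genes of adenosine and AMP metabolism were 4 higher, 4 lower and 5 not past the threshold. *Xdh*, which makes uric acid from xanthine, rose from 280, 271 and 284 to 490, 533 and 503 (log2 fold change 0.87, adjusted p = 1.11e-07 from limma). *Pnp*, a purine nucleoside phosphorylase, rose from 37.7, 41.1 and 42.8 to 96.2, 108 and 101 (log2 fold change 1.31), although reads of *Pnp* and its near-identical neighbor *Pnp2* may not be assigned with certainty. *Nt5c3*, a pyrimidine nucleotidase of the cytosol, rose from 17.4, 18.6 and 17.5 to 43.5, 50.1 and 47.6 (log2 fold change 1.35). In each of these genes every CITED2-deficient value lay above every control value. In contrast, the salvage enzyme *Hprt* fell from 137, 138 and 134 to 83.5, 83.9 and 80.9 (log2 fold change -0.71, adjusted p = 1.49e-07 from limma). *Adk*, which turns adenosine into AMP, fell from 14.8, 13.8 and 14.8 to 8.16, 9.0 and 9.52. *Aprt*, another salvage enzyme, had a log2 fold change of 0.048 and did not pass the threshold. The calls of *Ampd2* (log2 fold change -0.22) and of the deaminase *Ada* (-0.45, adjusted p = 0.0394), whose groups overlapped, were lost after median-ratio scaling (adjusted p = 0.0842 and 0.0844).

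Among 14 tested signal transduction partners 3 were higher, 5 lower and 6 did not pass the threshold. *Gnai2*, the most abundant alpha subunit of the Gi proteins that P2RY12, P2RY13 and P2RY14 use, had a log2 fold change of -0.21, and *Gnas*, the subunit of the Gs protein that ADORA2A and ADORA2B use, of 0.25. The arrestins *Arrb1* (-0.37) and *Arrb2* (-0.20) and the phospholipase *Plcb2* (-0.35) fell, whereas *Gnaq*, the subunit of the Gq protein, had a log2 fold change of -0.015 and did not pass. *Gnai3* (-0.14) lost its call after median-ratio scaling, with an adjusted p of 0.530 from limma. The adenylyl cyclase *Adcy6* had a log2 fold change of 0.64, which ranged up to 1.14 under the alternatives.

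**Figure D5:**
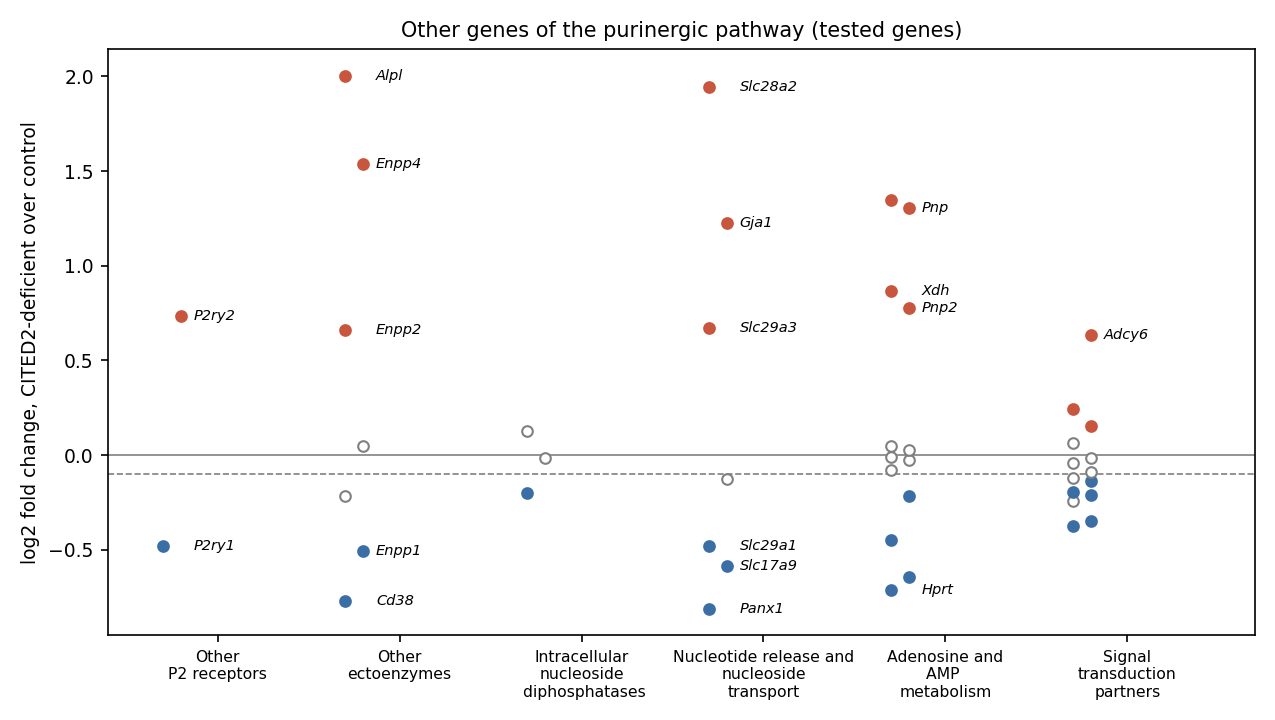
Log2 fold change, CITED2-deficient over control, of the tested genes of 6 purinergic lists. Filled points passed an adjusted p of 0.05 in limma (red higher, blue lower), open points did not, points are offset sideways for legibility, and some names are left out where they would collide. The dashed line is the median of all tested genes, -0.10. *Alpl* and *Slc28a2* lie highest, and *Panx1* and *Cd38* lowest.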

How the data were processed

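RNA from 3 control and 3 CITED2-deficient BMDM cultures was measured. The authors depleted ribosomal RNA, made stranded libraries, mapped reads to mm10 with STAR and deposited FPKM from Cuffdiff with the GENCODE annotation, 1 value for each gene and library. Versions of these tools: not given in the sources used here. FPKM are scaled to library size, so strongly changed genes can shift the others.

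The 11687 of 22248 genes whose FPKM averaged 1 or more were tested as log2(FPKM + 1) with limma 3.58.1 (R 4.3.3), a variance trend and Benjamini-Hochberg adjustment over all tested genes, with a threshold of 0.05. The values were whole fragments for 96.1% of 22239 genes matched to GENCODE vM21 lengths (within 0.02 in all 6 libraries), and limma-voom was run on the recovered fragments as an alternative, with genes of at least 10 fragments where the FPKM filter was dropped. Their number limits precision for low genes and covers counting error only. Replicates differed by more than sampling noise (mean chi-square per gene 2.31 to 6.41), and none was counted as a duplicate. Ratios within libraries were compared by an exact two-sided permutation test.

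Replicate numbers in the labels did not pair the samples, with correlations of deviations of 0.014, 0.0078 and 0.040 between same-numbered libraries. The series gives 3 mice, but not whether each library is a separate mouse or culture, so p-values measure only the spread between these libraries. The genes named are the 10 members, *Cited2*, the genes of the purinergic, neighbor and marker lists, and the 3 tested genes most like the member with the largest change. Members and lists were chosen with earlier results of these data known. *P2ry4*, *Entpd4*, *Entpd4b*, *Slc29a4* and *Abcc6* were not analysed here. Alternatives were pseudocounts of 0.1 and 0.5, dropping the filter or raising it to 5, median-ratio scaling, quantile normalization, no variance trend, limma-voom, a replicate block and each library left out. Limma-voom without the filter and a required fold change of 2 were chosen after seeing the data.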

Additional observations from a re-analysis of the deposited data

How the results depend on the processing

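The direction of each of the 6 called genes was the same under every alternative that tested it (a mean FPKM of at least 5 left out *P2ry12*), and *P2rx4* alone lost its call, after median-ratio scaling (log2 fold change -0.079). A fold change of at least 2 on the log2(FPKM + 1) scale, added after the data had been seen, left 615 of all tested genes and 2 of the 10 members, without *P2ry12*, whose mean FPKM differed 2.11-fold. With each library left out in turn, 5211 to 5475 genes, 6 members in every case and 27 to 30 other purinergic genes passed. Log2 differences of ratios then ranged from 0.83 to 0.87 for *P2rx4* to *P2rx7*, 0.88 to 1.61 for *Adora2a* to *Adora2b*, -0.81 to -0.17 for *Entpd1* to *Nt5e*, -1.95 to -1.80 for *P2ry6* to *P2ry14*, 0.68 to 1.07 for *P2ry13* to *P2ry12* and -1.90 to -1.44 for *P2ry13* to *P2ry14*. *Entpd5* lost its call on leaving out each library in turn, CITED2-deficient replicate 1 excepted, *Ada* without control replicates 1 or 2 or CITED2-deficient replicates 2 or 3, and *Gnai3* without control replicates 2 or 3 or CITED2-deficient replicate 3, and the cause was not tested. The replicate numbers did not pair the libraries, and with them as a block 5708 genes and 6 members passed. Higher genes made up 32.5% of the calls with the FPKM as deposited, 42.0% after quantile normalization and 52.0% after median-ratio scaling. Exact permutation p-values cannot fall below 0.1 with 3 against 3 libraries, and depth limits *Nt5e*, *Adora2a*, *Adora2b* and *P2ry13*, with 5 to 74 fragments per library.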

Other observations

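The genes next to *P2rx7* and *P2rx4* changed less than *P2rx7*. *Camkk2*, a calcium-dependent kinase, rose from an FPKM of 52.0, 51.4 and 54.2 to 61.6, 57.8 and 61.8 (log2 fold change 0.20, adjusted p = 0.00332 from limma). *Kdm2b* and *Anapc5* had log2 fold changes of -0.24 and -0.10, and both lost their calls after median-ratio scaling (adjusted p = 0.0664 and 0.999 from limma), *Anapc5* also on leaving out each library in turn, CITED2-deficient replicate 1 excepted. *Ift81* did not pass the threshold with the FPKM as deposited (log2 fold change 0.34, adjusted p = 0.0505).

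In the list of other P2 receptors, *P2rx1*, *P2rx2*, *P2rx3*, *P2rx5*, *P2rx6* and *P2ry10* were all below the filter. The highest value among them was an FPKM of 0.802 for *P2rx1* in control replicate 2. *P2rx4* and *P2rx7* were thus the only ATP-gated channels of the lists with a mean FPKM above 1. The adenosine receptor *Adora1* was listed at 0 in all CITED2-deficient libraries and in 1 control library.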
